A study of Sus scrofa with 2 samples.

Results

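Windows of 1 kb that held both almost unmethylated and almost fully methylated CpGs were examined in the methylome of pig skeletal muscle. The DNA came from the longissimus dorsi of 2 female Tibetan pigs, a muscle that runs along the spine, and was read by whole-genome bisulfite sequencing, in which unmethylated cytosine is read as thymine. The first pig was free-ranging in the Tibetan highland, at 4000 m on average. The second lived at 500 m on the Chengdu plain under experimental conditions with normal daily feeding, and its forebears were Tibetan pigs kept in lowland for nearly 10 generations. Only 1 pig of each group was sequenced, so altitude, feeding, housing, descent and the individual cannot be told apart, and no value has a replicate error.

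CpGs of the 18 autosomes that both libraries listed, with at least 5 reads in each, were used, and the reads of both strands were summed. A CpG was called low where its methylation level, the share of methylated reads, was 20% or less in both libraries, and high where it was 80% or more in both. A boundary window was a fixed 1 kb window with at least 2 low and at least 2 high CpGs. There were 289 such windows among the 626490 autosomal windows with 4 or more usable CpGs (0.0461%) and among 1508241 windows with any usable CpG. The windows were chosen by the methylation levels of both libraries, so the levels of the low and high CpGs, and the likeness of the libraries at them, are descriptions and not findings.

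In mammalian cells most CpGs are methylated, and the CpG-rich islands at many promoters are kept free of methylation. The edges of such islands, called shores, pass from low to high methylation over a short stretch, and methylation there often differs between tissues. Low methylation is also known at enhancers, and repeats of similar sequence can carry different methylation at their copies. The positions given are those of the deposited files, for which the sources used here name no genome build, so the windows carry no gene, promoter or repeat annotation and no sequence is shown.

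The autosomal lists held 9527968 cytosines with 91619676 reads in the high-altitude library and 9227228 with 87482185 reads in the low-altitude library, at a median of 8 reads per cytosine in both. Both lists hold only cytosines with at least 1 methylated read. CpGs without any methylated read are therefore absent, and the low CpGs described here are those with a trace of methylation.

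Low CpGs were rare and high CpGs common. Of 5463648 usable CpGs, 52636 (0.963%) were low and 1954781 (35.8%) high in both libraries. At least 2 low CpGs were found in 4663 windows, of which 3854 held no high CpG, 520 held 1 and 289 (6.2%) held the 2 or more that make a boundary window. Of the 3854 windows without a high CpG, 2674 had the 4 or more usable CpGs that a boundary window needs.

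The boundary windows held 3162 usable CpGs, of which 658 were low, 899 high and 1605 in neither class. The typical window met the rule with little to spare. In 239 windows there were exactly 2 low CpGs, in 167 exactly 2 high CpGs, and in 138 exactly 2 of each. The largest numbers in a window were 10 low and 50 high CpGs. A boundary window held a median of 9 usable CpGs (range 4 to 78), against 5 in all windows with 4 or more. Median depth was 10.5 reads per CpG at high altitude and 11 at low altitude, against 10.5 in both over all windows with 4 or more CpGs.

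Depth set how firmly a low CpG was known. The low CpGs had a median of 11 reads at high and 10 at low altitude, and 398 and 393 of the 658 rested on 1 methylated read. In 141 of the 289 windows the second lowest CpG lay exactly at 20% in its higher library, which is where 1 methylated read of 5 falls. In 68 windows the second highest CpG lay exactly at 80% in its lower library. Just outside the rule, 386 windows had their second lowest CpG above 20% and up to 25%, and 125 had their second highest CpG from 75% to below 80%. By 95% Wilson intervals of the reads, which cover counting error only, 353 low CpGs lay below 50% and 691 high CpGs above 50% in both libraries. Of the 289 windows, 80 held at least 2 such low and 2 such high CpGs. With a minimum of 10 reads per CpG, 53 windows met the rule. All 53 had to be among the 289, since the higher minimum only takes CpGs away.

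The low and the high CpGs mostly lay on separate sides of the window. In 209 of the 289 windows (72.3%), the order of low and high CpGs along the chromosome changed once, as a single step. Low CpGs came first in 106 of these and high CpGs first in 103, so neither orientation on the reference prevailed. A low stretch between high CpGs was seen in 37 windows (12.8%) and a high stretch between low CpGs in 20 (6.92%). In the remaining windows the order changed 3 times in 19, 4 times in 3 and 8 times in 1.

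Step width depended on the window size and the depth minimum. From the last low to the first high CpG, the median distance was 287 bp (quartiles 171 and 457, range 2 to 855, 209 windows). It was 273 bp in windows with the low side first and 294 bp in those with the high side first. Steps of at most 200 bp, the lower end of the sheared fragment length given in the labels, were found in 71 windows (34.0%). Steps of at most 50 bp were found in 11 windows. The median was 156 bp in windows of 500 bp, 538 bp in windows of 2 kb and 203 bp with at least 10 reads per CpG.

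**Figure D1:**
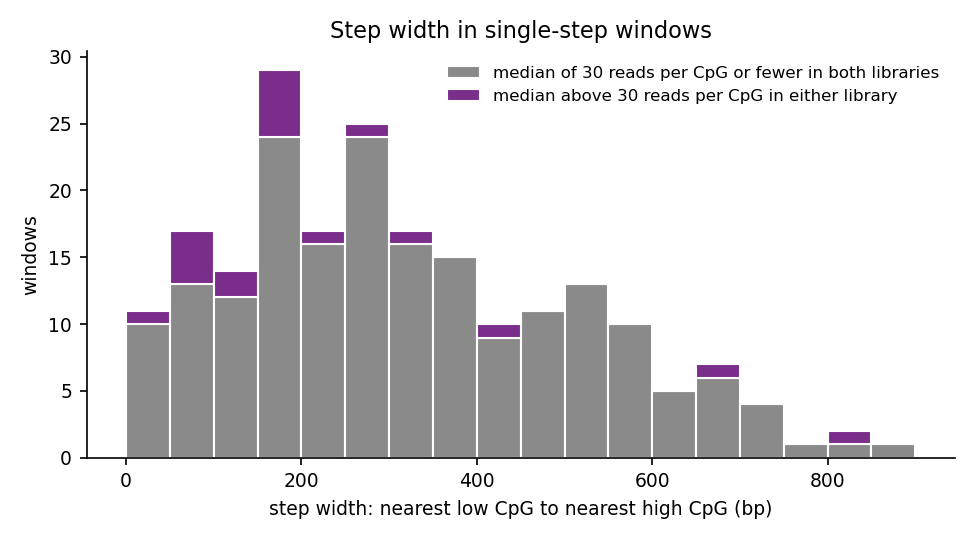
Step width in the 209 single-step windows, as the distance in bp (horizontal axis) from the nearest low to the nearest high CpG, against the number of windows (vertical axis) in classes of 50 bp. Grey marks windows with a median of 30 or fewer reads per CpG in both libraries and purple those above it in either library. The median was 287 bp and 11 windows had a step of at most 50 bp.

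No usable CpG lay inside the step in 70 of the 209 windows, where the level passed from low to high between neighbouring usable CpGs at a median distance of 246 bp (quartiles 90.25 and 393). The other 139 windows had a median of 2 CpGs inside the step. Levels there climbed from the low to the high end. With each step divided into 3 equal parts, the mean CpG level in the part next to the low side was 44.5% ± 20.4 (SD, 126 CpGs) at high altitude and 44.6% ± 20.4 at low altitude. In the middle part it was 59.1% and 54.8% (124 CpGs), and in the part next to the high side 64.0% ± 20.8 and 62.9% ± 18.01 (140 CpGs). CpGs in neither class were also graded outside the step. On the low side their mean was 40.5% and 40.9% (341 CpGs), and on the high side 67.2% and 65.9% (368 CpGs). CpGs at these levels could not be low or high by the rule, so their means lie between the classes by construction and only their order along the step describes the data.

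Methylation next to the boundary windows was not used by the rule, and it was lower beyond the low side than beyond the high side. In the next kb beyond the low side, the mean CpG level was 59.6% ± 23.6 (SD over 156 windows) at high altitude and 59.5% ± 22.1 at low altitude. Beyond the high side it was 72.8% ± 19.4 and 71.2% ± 18.2 (189 windows). For comparison, the neighbours of all windows with 4 or more CpGs had a mean of 73.6% and 72.6%. Neighbours of windows with at least 2 low and no high CpGs had 46.9% and 45.6%. The level beyond the low side depended on the definition of the windows and of usable CpGs. A depth minimum also applies to the CpGs of the neighbouring kb, so both changed together at 10 reads. A listed CpG with 5 reads cannot stand below 20%, which sets a floor at shallow neighbours. With at least 10 reads per CpG it was 38.1% and 38.7% (only 24 windows), and with 3 CpGs in each class 32.5% and 32.1% (only 12 windows). Beyond the high side the level was 62.7% and 59.5% (28 windows), and 77.1% and 75.4% (14 windows), in the same order. Of 145 windows with both neighbours measured, the low side was the lower in 97 by the reads of the high-altitude library and in 93 by those of the other. The mean gap was 11.0 points (SD 27.8) and 10.5 points (SD 24.9), less than the SD between windows. No test was made, since windows of a single library are not replicates.

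The gap faded within a few kb. In the second kb it was 4.62 points at high and 3.83 at low altitude, with the low side lower in 77 and 82 of 145 windows. By the third kb it was 2.34 and 1.69 points, and in the fifth kb −1.96 and −0.73 points, with the low side lower in 61 and 60 of 132 windows. A low side without any usable CpG in the next kb was more frequent than such a high side, at 53 against 20 of the 209 windows. CpGs without methylated reads are not listed, so these windows may be either unmethylated or uncovered.

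**Figure D2:**
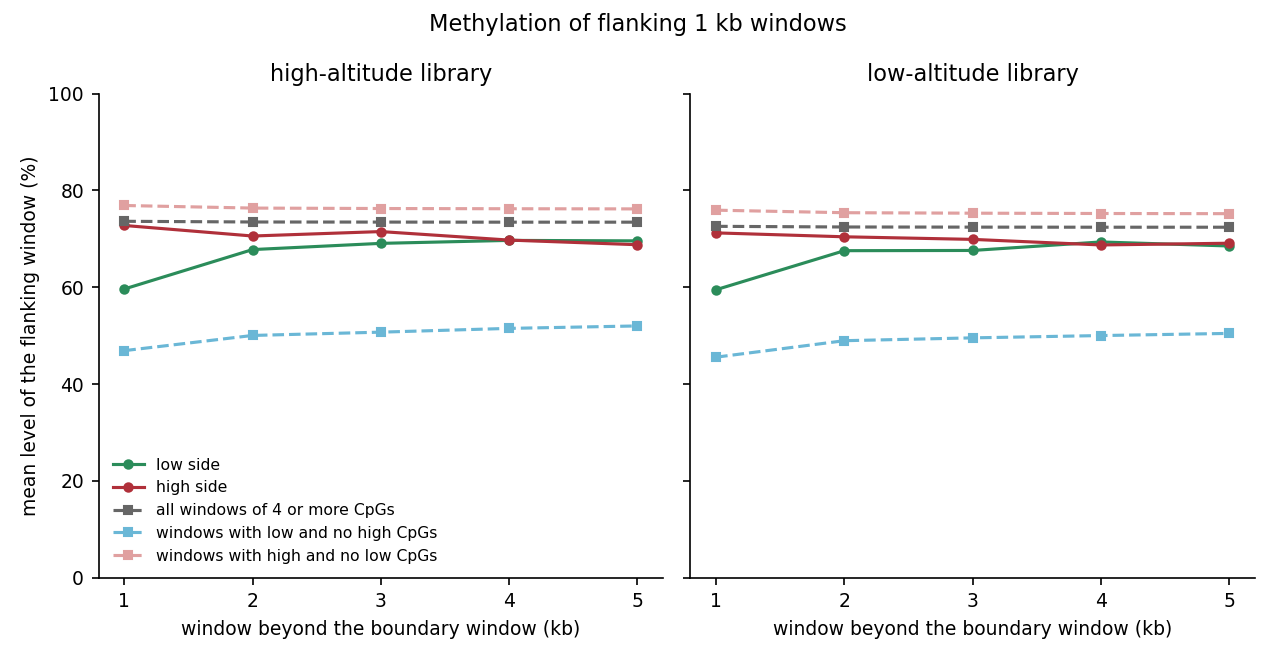
Mean CpG level in percent (vertical axis) of the 1 kb windows lying 1 to 5 kb (horizontal axis) beyond single-step boundary windows, with the high-altitude library on the left and the low-altitude library on the right. Circles show the low and the high side, and squares the neighbours of all windows with 4 or more CpGs, of windows with low and no high CpGs, and of windows with high and no low CpGs. The low side is lower in the first kb, at 59.6% and 59.5%, and joins the high side by 4 kb.

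Aligned on the middle of the step, the CpGs outside the windows also climbed with distance on the low side. These means count CpGs, so neighbours with many CpGs weigh more. In the bin centred at 300 bp on the low side, the 30 CpGs outside the window had a mean level of 44.4% at high altitude and 42.5% at low altitude. At 1100 bp the mean was 56.1% and 59.1% (177 CpGs), and at 1900 bp 57.7% and 58.1% (243 CpGs). At 2500 bp it was 64.1% and 66.2% (198 CpGs), and in the highest bin, at 2900 bp, 73.1% and 69.8% (216 CpGs). On the high side, CpGs outside the window stood at 67.3% and 64.9% at 300 bp (75 CpGs), at 76.0% and 74.2% at 700 bp (177 CpGs), and at 67.5% and 67.8% at 2900 bp (182 CpGs). Counted by CpGs, the lower level thus reached about 2 kb beyond the step on the low side, and both ends of the profile stood at a similar level. Counted by windows, the second kb differed less, at 67.8% and 67.5% beyond the low side against 70.6% and 70.4% beyond the high side.

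**Figure D3:**
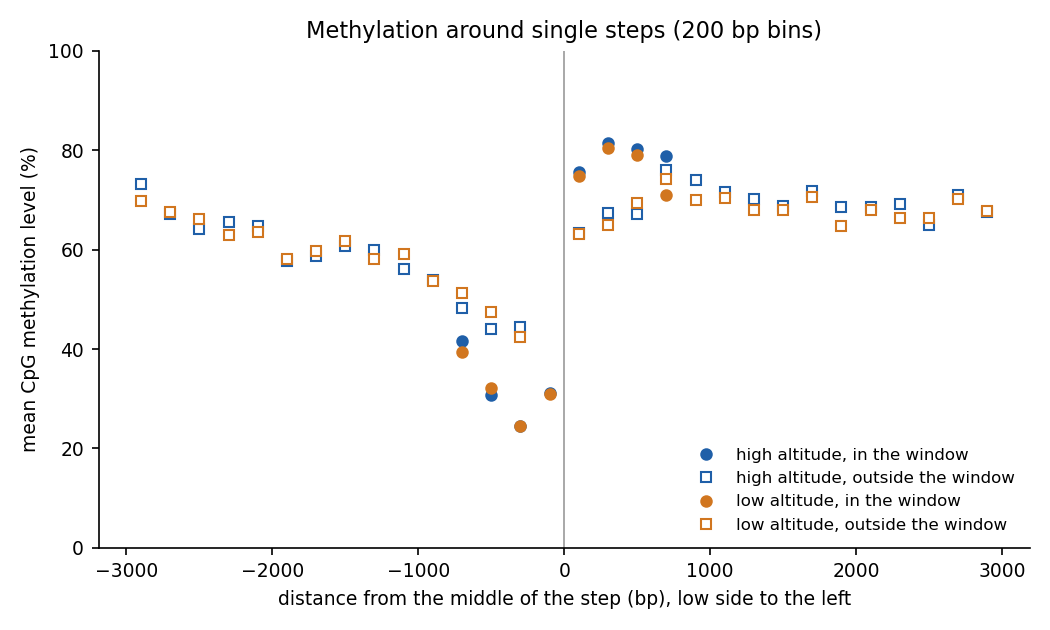
Mean CpG level in percent (vertical axis) against the distance in bp from the middle of the step (horizontal axis), in bins of 200 bp, for single-step windows turned so that the low side is on the left. Filled circles are CpGs in the boundary window, among them the low and high CpGs that the rule used, and open squares are CpGs outside it. Blue is the high- and orange the low-altitude library, and bins with fewer than 20 CpGs are left out. The open squares on the low side climb unevenly from 44.4% and 42.5% at 300 bp to 67.1% and 67.6% at 2700 bp. The last bin, at 2900 bp, is the highest on this side, at 73.1% and 69.8%.

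Surroundings on a larger scale were somewhat less methylated than usual. The 100 kb bin around a boundary window, without the window itself, had a mean CpG level of 70.6% ± 11.4 (SD over 289 windows) at high altitude and 69.9% ± 11.5 at low altitude. It was 74.2% ± 7.15 and 73.2% ± 7.26 around windows with 4 or more CpGs in general, and 55.7% and 54.5% around windows with low and no high CpGs.

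The rule was also applied to the levels of each library alone, and the same CpGs were then read in the other library. The other library still took part in the choice, since a usable CpG had to be listed in both. CpGs without methylated reads in the other library were therefore left out. This tends to raise the means of that library and to lower its share at 20% or less, by an amount that is not known. In the high-altitude library alone, 4608 windows held at least 2 CpGs at 20% or less and 2 at 80% or more. Their low CpGs averaged 15.6% in that library and 39.9% ± 23.6 (SD over 10175 CpGs) in the low-altitude library, where 27.5% of them were again at 20% or less and 27.2% were above 50%. Their high CpGs averaged 90.2% and, in the low-altitude library, 79.8% ± 17.5 (15494 CpGs). In the low-altitude library alone, 4300 windows met the rule, and the high-altitude library gave 40.3% ± 24.2 at the low and 81.0% ± 17.3 at the high CpGs. These windows include the 289, in which the rule fixed the levels of both libraries. Without them, 4319 and 4011 windows remained. Leaving them out is itself a choice by the levels of the other library. It tends to raise the mean of that library at the low CpGs and to lower it at the high CpGs. It also tends to lower the share found again at 20% or less. In the other library, the low CpGs of the remaining windows averaged 41.7% and 42.4% and their high CpGs 79.4% and 80.6%. The mean of the high CpGs lay above that of the low CpGs there in 4071 of 4319 windows (94.3%) and in 3782 of 4011 (94.3%). A level of 20% or less was found again at 22.8% and 22.5% of the low CpGs. Each library on its own met the rule in 627 windows, and 289 of these did so with the same CpGs.

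Cytosines listed in only 1 of the libraries took no part in the rule, and they followed the sides of the windows. Those on the other strand of a CpG that the rule used were not set apart, so the set is not independent of the rule. On the low side of single-step windows, the 201 cytosines listed only at high altitude had a mean level of 33.6%, and the 239 listed only at low altitude 35.5%. On the high side the means were 79.1% (268 cytosines) and 79.2% (247 cytosines), and inside the step 61.1% and 54.6%. A level of 20% or less was found for 47.3% and 46.0% of those on the low side and for 2.61% and 1.21% of those on the high side. In windows with low and no high CpGs such cytosines had 36.2% and 35.5%, in windows with high and no low CpGs 78.9% and 78.0%, and in all windows with 4 or more CpGs 74.4% and 73.6%. The share of listed cytosines that both libraries listed was 68.6% on the low and 70.0% on the high side, against 62.5% in all windows with 4 or more CpGs.

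Both strands were listed in both libraries at 67 of 658 low CpGs (10.2%), at 25.9% of the high CpGs in the same windows and at 17.1% of all usable CpGs. A strand without methylated reads is left out of the lists, so these shares do not compare how often the strands were read. These 67 CpGs, in 33 windows, averaged 11.0% on the plus and 16.2% on the minus strand in the high-altitude library, and 10.4% and 17.5% in the low-altitude library. The plus strand was the lower in both libraries at 31 of them and the minus strand at 14. High CpGs listed on both strands had 88.3% and 89.1% at high altitude, and 88.3% on either strand at low altitude. A strand at 50% or more in both libraries was found at 4 of the 67 low CpGs, all in the chromosome 15 window described below. These 4 are part of the strand means above, which were not computed without them.

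Most CpGs were listed in both libraries on 1 strand only, and an unlisted strand may have had reads. All 67 low CpGs listed on both strands had 5 or more reads on each strand in both libraries. Whether strands with fewer reads were left out of the lists was not tested. The listed strands of the low and the high CpGs were compared within windows. In 27 of the 289 windows (9.34%), no listed strand was shared by the low and the high CpGs, and 25 of these had a single step. On the cytosines of a strand alone the rule was met in 173 windows (59.9%), of which 126 had a single step. In these 126 the median step was 263 bp. The kb beyond their low side had 58.7% at high and 58.5% at low altitude (94 windows), and that beyond their high side 72.7% and 70.3% (112 windows). These neighbouring levels were taken over both strands.

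Single CpGs can be followed in the single-step windows with the most CpGs in both classes. Windows were ranked by the smaller of their numbers of low and high CpGs, ties by the sum of reads, and the first 6 from different chromosomes are described. They are not typical of the 289, since the chromosome 16, 6, 5 and 10 windows have a median above 30 reads per CpG in a library. On chromosome 16, from 54726001 to 54727000, 10 low CpGs were followed by 16 high CpGs over a step of 152 bp. The low CpGs were methylated in 10.6% of 1916 reads at high altitude (95% Wilson interval 9.29 to 12.1) and in 8.62% of 545 reads at low altitude (6.55 to 11.3). The high CpGs stood at 87.6% of 8175 reads (86.9 to 88.3) and 86.6% of 2762 reads (85.3 to 87.8). The last low CpG, at 54726332, had 8 of 137 and 4 of 46 reads methylated, and the first high CpG, at 54726484, had 416 of 505 and 246 of 304. Between them lay 9 CpGs at intermediate levels, which began with 69 of 168 and 27 of 51 methylated reads at 54726345. The kb beyond the low side was almost free of methylation, at 2.63% and 3.05% over 26 CpGs, and the kb beyond the high side had 78.1% and 73.9% over 27 CpGs. Beyond the low side of the other windows the level was higher, at 23.8% and 23.0% on chromosome 15 and 36.7% and 37.2% on chromosome 6. On chromosome 5 it was 37.3% and 34.1% over 4 CpGs, and on chromosome 10 32.2% and 35.6% at 1 CpG. The chromosome 13 window had no usable CpG there.

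On chromosome 15, from 140261001 to 140262000, 7 high CpGs were followed by 7 low CpGs after 225 bp. The high CpGs stood at 91.2% of 91 reads at high altitude (83.6 to 95.5) and 89.8% of 108 reads at low altitude (82.7 to 94.2). The low CpGs stood at 2.16% of 4037 reads (1.75 to 2.65) and 3.09% of 2329 reads (2.46 to 3.88). Depth and strand changed with the level here. The last low CpG, at 140261975, had 7 methylated of 2556 reads and 12 of 1513, whereas the high CpG at 140261356 had 9 of 11 and 13 of 15, listed on the minus strand only. At 140261581, the first low CpG, the plus strand had 4 of 222 and 2 of 128 reads methylated and the minus strand 12 of 15 and 8 of 8. A CpG among the low ones listed on the minus strand only, at 140261614, had 12 of 16 and 8 of 8. The summed low level next to the step was thus that of the deep plus strand, while the minus strand was methylated there too. On the listed cytosines of the minus strand alone the window still met the rule, and on those of the plus strand alone it did not. The part of depth and strand in this step was not tested further.

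On chromosome 6, from 117001 to 118000, 4 low CpGs had 10.4% of 2602 reads and 6.07% of 2504 reads, and 3 high CpGs had 87.5% of 40 reads and 92.6% of 135 reads. They were 802 bp apart with 26 CpGs between them, which did not climb steadily. The CpG at 117432, for instance, had 80.4% and 74.2%, and that at 117784, nearer to the high CpGs, 16.3% and 21.6%. On chromosome 5, from 2621001 to 2622000, 5 low CpGs had 12.6% of 348 reads and 15.9% of 333 reads, and 3 high CpGs after 181 bp had 92.6% of 27 reads and 88.5% of 26 reads. The chromosome 10 window, from 22977001 to 22978000, had the narrowest step of these 6, at 63 bp. Its 4 high CpGs stood at 86.7% of 113 reads and 83.4% of 151 reads, and its 3 low CpGs at 10.9% of 156 reads and 12.1% of 149 reads. On chromosome 13, from 56115001 to 56116000, where the median was 14 reads per CpG in both libraries, 3 low CpGs had 14.9% of 47 reads and 10% of 40 reads. The 4 high CpGs, after 164 bp, had 95% of 60 reads and 96.8% of 62 reads. Its low and high CpGs shared no listed strand.

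**Figure D4:**
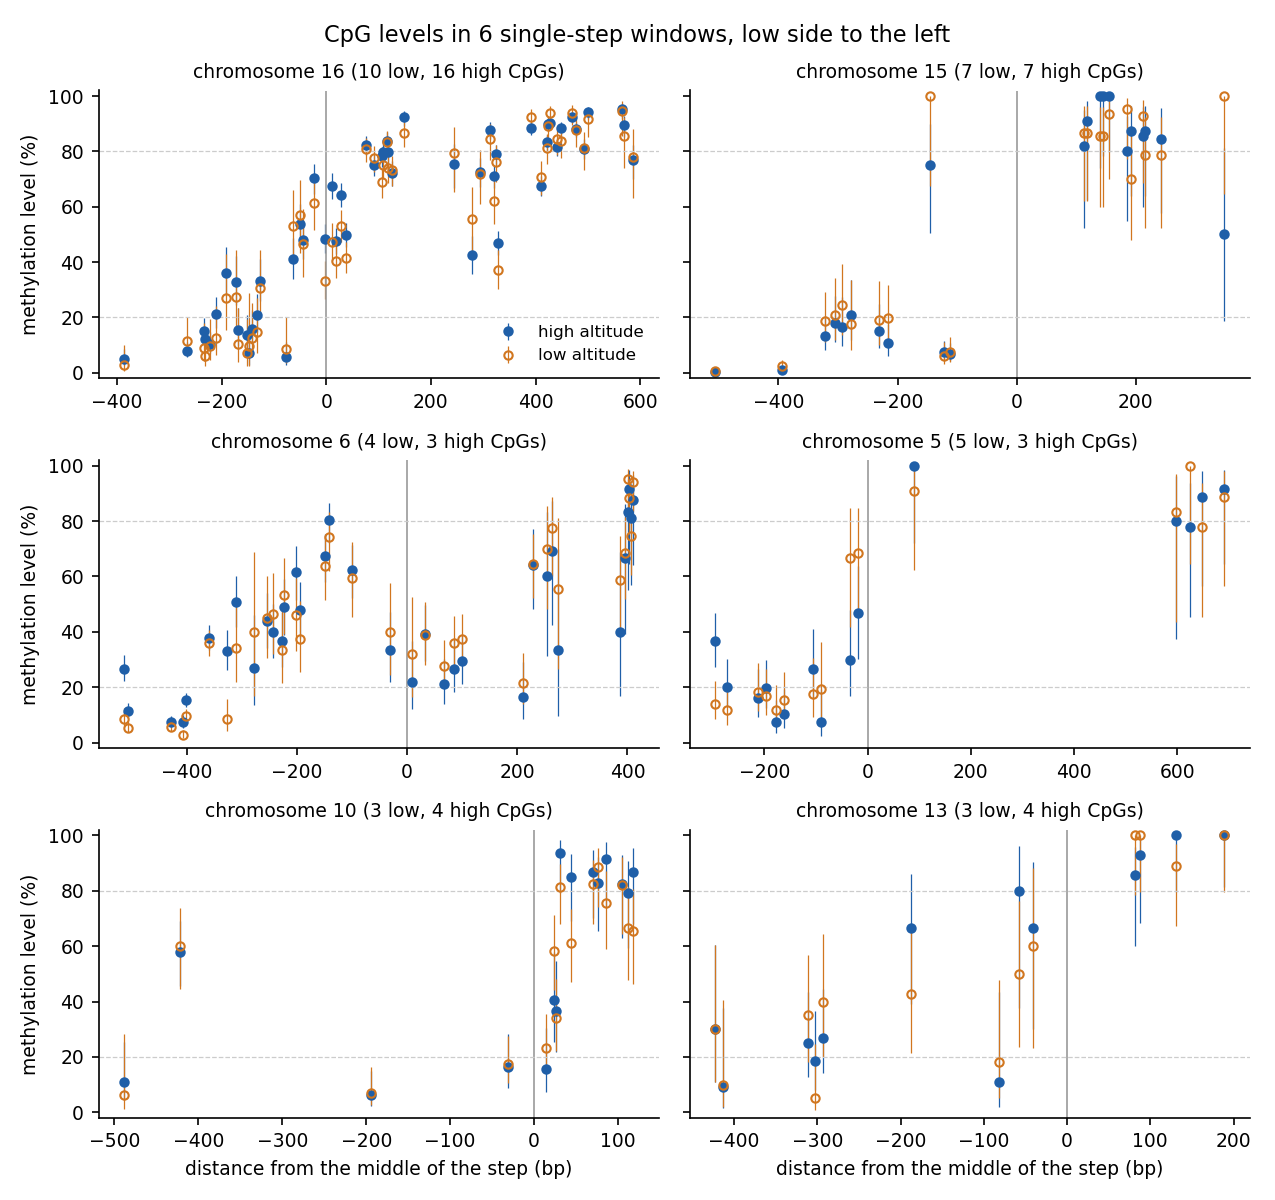
Methylation level in percent (vertical axis) of every usable CpG in these 6 windows, against the distance in bp from the middle of the step (horizontal axis), turned so that the low side is on the left. Filled blue points are the high-altitude and open orange points the low-altitude library, bars are 95% Wilson intervals of the reads, and dashed lines mark 20% and 80%. Both libraries show the low and the high CpGs at the same places, by the rule, while the chromosome 6 window holds 26 CpGs inside its step that rise and fall.

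Among windows with at least 3 low and 3 high CpGs, of which there were 21, the narrowest single steps were on chromosome 7. From 5651001 to 5652000 a step of 27 bp parted 3 low CpGs, with 18.2% of 22 reads and 15% of 20 reads, from 4 high CpGs, with 87.8% of 41 reads and 95.5% of 22 reads. The last low CpG, at 5651519, had 2 of 10 and 1 of 6 reads methylated, and the first high CpG, at 5651546, had 8 of 10 and 4 of 5. The kb beyond its low side was not low, at 78.4% and 63.6% over 5 CpGs. From 1190001 to 1191000 a step of 38 bp parted levels of 17.6% of 17 reads and 20% of 15 reads from levels of 94.8% of 58 reads and 97.1% of 35 reads. Next came the windows of chromosomes 10 and 16 described above, with 63 bp and 152 bp, which rested on more reads. Neither window on chromosome 7 held 2 low CpGs whose intervals stayed below 50% in both libraries.

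In 80 windows low and high CpGs alternated, and in 21 of these a low and a high CpG lay within 50 bp of each other. The window with the most changes, 8, was on chromosome 1, from 314217001 to 314218000, with 78 usable CpGs, 50 high and 5 low. Its low CpGs lay in a highly methylated stretch as 3 single positions and 1 pair of neighbouring CpGs, at 314217287 and 314217293. At 314217034, 2 of 193 reads and 2 of 84 reads were methylated, whereas the high CpG 9 bp before it had 206 of 234 and 89 of 96, and that 10 bp after it 250 of 282 and 111 of 123. The low CpG at 314217371 had 2 of 178 and 2 of 82. For 4 of the 5 low CpGs both libraries listed the plus strand only, and the remaining one, at 314217287, was listed on both strands. A minus strand without methylated reads would not be listed, so its level at those 4 is unknown. On chromosome 2, from 100152001 to 100153000, 3 low CpGs at 8.74% of 103 reads and 14% of 50 reads lay among 18 high CpGs at 86.8% of 1993 reads and 89.7% of 1121 reads, with 4 changes. The windows with 4 changes on chromosome 3, from 21246001 to 21247000, and on chromosome 16, from 51965001 to 51966000, each held 2 low and 3 high CpGs. Over the 80 windows the low CpGs averaged 13.1% and 13.7%, against 13.8% and 13.9% in single-step windows, and 14 of their 177 low CpGs were listed on both strands.

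Some boundary windows were very deep. A median above 30 reads per CpG in either library was found in 31 of 289 windows (10.7%), against 0.918% of all windows with 4 or more CpGs. Windows with low and no high CpGs were deep more often, with a median above 30 reads in 26.9% at high and 27.4% at low altitude, against 8.65% and 9.34% of the boundary windows. Listing needs a methylated read, so a nearly unmethylated CpG is more likely to be listed where reads are many. The part of this in the depth of both sets was not tested. By the mean of the median reads per CpG of both libraries, the deepest were on chromosome 16, from 36787001 to 36788000, with medians of 983 and 921 reads, and on chromosome 6, from 953001 to 954000, with 242 and 328.5 reads. In the first of these the low CpGs had 11.9% and 12.4% methylated of 1557 and 1529 reads, and the high CpGs 86.7% and 92.9% of only 15 and 14 reads. In the second both classes were deep, with 11.4% and 15.2% of 1911 and 2529 reads at low CpGs and 82.6% and 82.7% of 385 and 565 reads at high CpGs. Reads per low CpG were at least 5 times those per high CpG in both libraries in 5 windows. In the median window the ratio was 0.923 and 0.938.

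The deep windows had more CpGs, a median of 22 against 9, and a lower neighbourhood. A single step was found in 18 of 31 (58.1%), with a median width of 168.5 bp, against 191 of 258 other windows (74.0%) with 294 bp. In the kb beyond the low side they had 33.3% and 33.9% (17 windows), and beyond the high side 58.5% and 55.6% (15 windows). Without them the low side had 62.9% and 62.6% (139 windows) and the high side 74.0% and 72.6% (174 windows), and the low side was the lower in 86 and 84 of 130 windows. Without the deep windows the mean gap was 9.6 and 9.3 points.

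**Figure D5:**
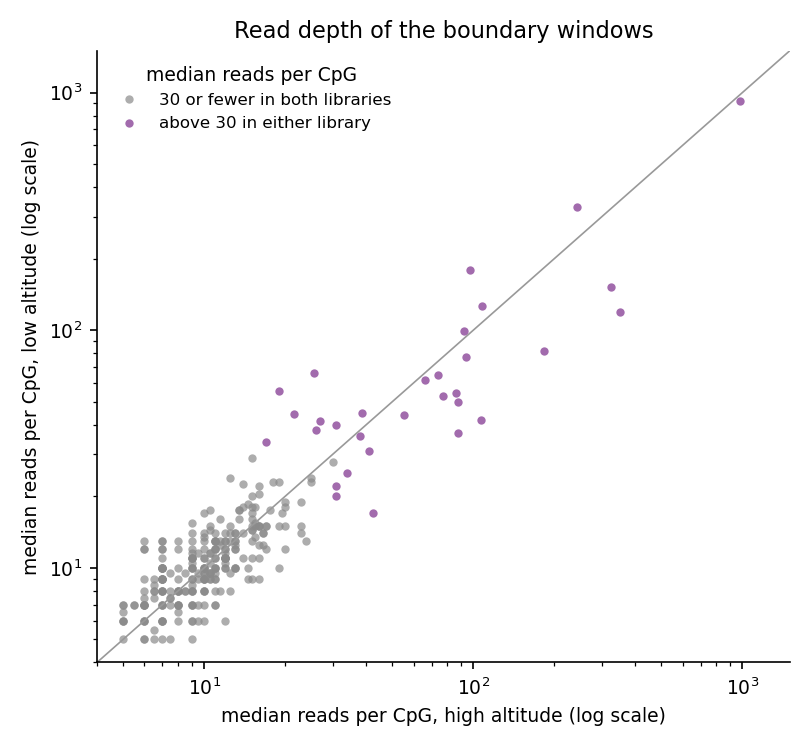
Median reads per CpG of the 289 boundary windows in the high-altitude (horizontal axis) and the low-altitude library (vertical axis), both on a log scale, with a line of equal depth. Purple points are the 31 windows with a median above 30 reads in either library. They reach 983 and 921 reads, and 19 of them were deeper in the high-altitude library.

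Boundary windows were scattered over all autosomes, with some close groups. Their frequency ran from 2.57 per 10000 windows with 4 or more CpGs on chromosome 18 (5 windows, 95% Wilson interval 1.10 to 6.01) to 7.78 on chromosome 16 (18 windows, 4.92 to 12.3), around a value of 4.61 over all autosomes. The intervals of these extremes overlap. Within 2 Mb of the first position or the last usable CpG of a chromosome lay 23 of 289 boundary windows (7.96%), against 2.65% of windows with 4 or more CpGs. Groups of windows within 200 kb of each other numbered 18, with 42 windows in all. Of the 31 deep windows, 22 were in such groups, against 20 of the other 258. The largest group lay on chromosome 17, between 69496001 and 69677000, with 4 windows, all deep. Groups of 3 deep windows lay on chromosome 2, between 100113001 and 100153000, and on chromosome 16, between 54724001 and 54881000. Only 1 pair of boundary windows adjoined, on chromosome 3 from 45077001 to 45079000, with 2 low and 2 high CpGs in the first and 4 low and 2 high CpGs in the second window.

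The libraries were compared over the whole window and at the CpGs of neither class. Because the low and high CpGs had been chosen for like levels in both pigs, few differences could appear, and the counts are given beside their background without a reading. Windows with 5 or more CpGs were tested on summed reads by the two-sided Fisher's exact test, adjusted over 423427 autosomal windows. A call needed 20 points or more and an adjusted p under 0.05. With 1 pig per group this compares 2 libraries. Of 282 boundary windows tested, 1 was called (0.355%), against 0.514% of all windows. It was lower at low altitude, as were 0.315% of all windows. Their median difference, low minus high altitude, was −0.52 points (SD 7.31), against −0.96 (SD 8.83) over all windows tested, and 149 of the 282 (52.8%) were lower at low altitude, against 54.8% of all windows.

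The called window was on chromosome 17, from 67549001 to 67550000. Methylated reads made up 44.1% of 256 at high altitude and 23.2% of 327 at low altitude, which is −20.9 points (adjusted p = 0.000246, Fisher's exact test). Its 2 low CpGs stood at 8.57% of 35 reads and 14.5% of 62 reads, and its 2 high CpGs, 193 bp further, at 91.1% of 45 reads and 88.5% of 26 reads. The CpG at 67549891, between its low and high side, had 12 of 36 and 2 of 34 reads methylated. The kb beyond its low side had 36.0% and 30.3% over 9 CpGs. That was above the kb beyond its high side, at 29.0% and 27.7% over 4 CpGs. With a limit of 30 points it was not called.

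At the 1605 CpGs of neither class, the mean level was 56.3% ± 22.6 at high altitude and 55.4% ± 22.3 at low altitude (SD over CpGs). The mean difference was −0.96 points (SD 20.7), with 842 CpGs lower, 727 higher and 36 equal at low altitude. It was −0.059 points without the 31 deep windows and 0.26 points with windows shifted by 500 bp, so its sign depended on the windows taken. Over all autosomal CpGs of neither class the mean difference was −1.36 points (SD 24.7). Of these 1605 CpGs, 2 were at 20% or less at high and 80% or more at low altitude, and 2 the reverse. Together they made up 0.249%, against 0.858% of all 3456231 autosomal CpGs of neither class. A level of 20% or less was reached only at high altitude by 117 CpGs and only at low altitude by 107. A level of 80% or more was reached only at high altitude by 256 and only at low altitude by 214.

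Single CpGs were tested where both libraries had 10 or more reads, by the two-sided Fisher's exact test adjusted over 2370254 CpGs. A call needed 25 points or more and an adjusted p under 0.05, and 3 of 1727 CpGs in boundary windows met this. This was 0.174%, against 0.348% of all CpGs tested. Among CpGs of neither class it was 3 of 950 (0.316%), against 0.54%. All 3 were lower at low altitude and lay in deep windows that belong to the groups above or to a pair on chromosome 10. On chromosome 17, the CpG at 69676404 had 80.4% of 138 reads at high altitude and 13.6% of 66 at low altitude, or −66.8 points (exact test, adjusted p = 3.78e-15). Its reads were split unlike between the strands, with 68 plus and 70 minus at high and 58 plus and 8 minus at low altitude. On chromosome 10, the CpG at 29448070 had 69.4% of 36 reads and 20.5% of 39 reads (exact test, adjusted p = 0.0152), listed on the minus strand only. On chromosome 2, the CpG at 100131053 had 92.1% of 215 reads and 66.3% of 83 reads (exact test, adjusted p = 0.000855).

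A stricter definition left few boundaries. With limits of 10% and 90%, 3 windows remained, the window of 8 changes on chromosome 1 and those on chromosome 16 from 54726001 to 54727000 and from 54880001 to 54881000. All 3 were among the deep windows, with medians of 182.5, 350 and 97 reads per CpG in the high-altitude and 81.5, 119 and 179 in the low-altitude library. Listed cytosines have at least 1 methylated read, so a level of 10% or less needs 10 or more reads in both libraries. The lists thus bar most low CpGs of shallow windows, and the small number and the depth of these windows are partly built in. The last of them, chosen here after its values were seen, held 8 low and 16 high CpGs around a step of 310 bp.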

How the data were processed

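Whole-genome bisulfite libraries of 2 pigs, 1 per altitude, were analysed from the cytosine lists that the authors deposited. The submitters' processing notes name Bismark 0.12.5, a bisulfite aligner. Nothing used here names the genome build or says how reads were filtered or duplicates treated. For each cytosine the deposited tables give, per the file headers, counts of methylated and unmethylated reads, a fraction as the level, and p-values raw and corrected. The deposited p-values were not used. Levels were computed from the counts. The deposited fraction served only as an alternative.

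Members and comparisons were chosen with earlier results of these data known. Windows named in the text followed rules on the number of CpGs, step width, changes of order, calls, adjoining windows and depth. Fisher's exact test with Benjamini-Hochberg adjustment was run over all autosomal windows and CpGs and tested on simulated data. Intervals are 95% Wilson intervals. Alternatives changed the depth minimum, limits, number of CpGs, window size and start, deep CpGs, strand and source of levels. Python 3.11.15, numpy 2.4.6, pandas 2.3.3, numba 0.67.0 and matplotlib 3.10.9 were used.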

Additional observations from a re-analysis of the deposited data

How the results depend on the processing

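The number of boundary windows depended on the definition. It was 53 with at least 10 reads per CpG, 3 with limits of 10% and 90%, 2435 with 30% and 70%, 21 with 3 CpGs in each class, 68 in windows of 500 bp, 1075 in windows of 2 kb and 173 where the rule had to be met on a strand alone. It stayed within 1.5 times of 289 under the other alternatives, at 221 to 314. The share with a single step was 66.7% with limits of 10% and 90% (3 windows), 59.5% with 30% and 70% and 66.9% in 2 kb windows. The median step width ran from 156 to 538 bp. Called windows numbered 0 at 10 reads, with limits of 10% and 90%, with 3 CpGs, in 500 bp windows and at 30 points, 2 with shifted windows, 5 with limits of 30% and 70% and 6 in 2 kb windows. Called CpGs numbered 0 with limits of 10% and 90%, without CpGs above 50 reads, without deep windows and without grouped windows, 1 with 3 CpGs, 5 with shifted windows, 19 in 2 kb windows and 26 with 30% and 70%. The mean difference at CpGs of neither class was −2.64 points at 10 reads, −1.49 with 30% and 70%, −0.12 without CpGs above 50 reads, −0.43 without grouped windows, −0.059 without deep windows and 0.26 with shifted windows. The causes of these shifts were not tested. The low side had the lower mean level in the next window in both libraries under each alternative. The alternatives by strand and without deep or grouped windows were chosen after seeing the data. No paired analysis was possible because each group holds 1 pig.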
